A study of Mus musculus with 6 samples.

Results

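The 10 genes described here encode receptors of insulin and insulin-like growth factor (IGF) signalling and the proteins that act just below them, and all 10 were among the 19937 genes measured in islets after a pulse of Sox17. They were taken as a named list that covers the receptors (Insr, Insrr, Igf1r, Igf2r), the docking and adaptor proteins of the receptors (Irs1, Irs2, Grb10), a regulatory subunit of phosphatidylinositol 3-kinase, or PI3K (Pik3r1), and the kinases Akt1 and Akt2. For a gene with several probe sets, the brightest one over the 6 arrays was used, and only probe sets annotated with a single gene symbol were considered.

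The samples were whole islets of 16-week-old mice, 3 Sox17-GOF samples of genotype Ins2-rtTA;tetO-Sox17 and 3 control samples of genotype Ins2-rtTA. All of them received doxycycline for 24 hours, and by these labels the Ins2-rtTA allele was shared as well and the tetO-Sox17 allele set the groups apart. For other assays of the 24-hour pulse the study names TetO-Sox17 mice as controls, and if that held for the arrays, the Ins2-rtTA allele would be the one that differed. Ins2-rtTA directs the activator to insulin-producing cells, whereas the RNA came from every cell type of the islet. The mice had been backcrossed from an outbred stock to C57BL/6 for 3 or more generations, and the methods speak of independent biological triplicates, without giving the number of mice behind a sample. Each sample was hybridised to 1 Affymetrix Mouse Gene ST array, and values are given on the log2 scale as deposited, where a difference of 1 is a doubling. Differences are Sox17-GOF minus control throughout and were tested with limma, which pools information on the spread across probe sets. A gene was called changed at an adjusted p under 0.05 (Benjamini-Hochberg over 22961 probe sets).

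Insulin and the IGFs act through receptor tyrosine kinases that phosphorylate docking proteins, the insulin receptor substrates. These recruit PI3K, whose lipid product brings AKT kinases to the membrane, where they are activated and in turn phosphorylate targets such as FOXO transcription factors and GSK3. β cells carry this pathway themselves, and in mice the loss of Irs2 or Akt2 is known to cause diabetes. The member that fell most on these arrays, Insrr, encodes the insulin receptor-related receptor, which does not bind insulin and is known as a sensor of alkaline extracellular pH.

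The 10 genes divided into 2 that were lower in Sox17-GOF islets, Insrr and Akt2, and 8 that did not pass the test. Of all genes, 5.21% were called in either direction, 2.44% lower and 2.77% higher. None of the members was higher by limma. At an unadjusted p under 0.05 by limma, which 19.7% of all genes reached, 4 members were lower and 0 higher. The methods' t-test at that threshold gave 3 lower and 0 higher, and its share of all genes was not counted. The median log2 difference of the members was -0.25, beside -0.01 for all genes. Of the members 6 were below 0 and 4 above it, and of all genes 10550 and 9387. In 4 members (Insrr, Akt2, Igf2r and Insr) the groups did not overlap, as in 25.5% of all genes.

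**Figure D1:**
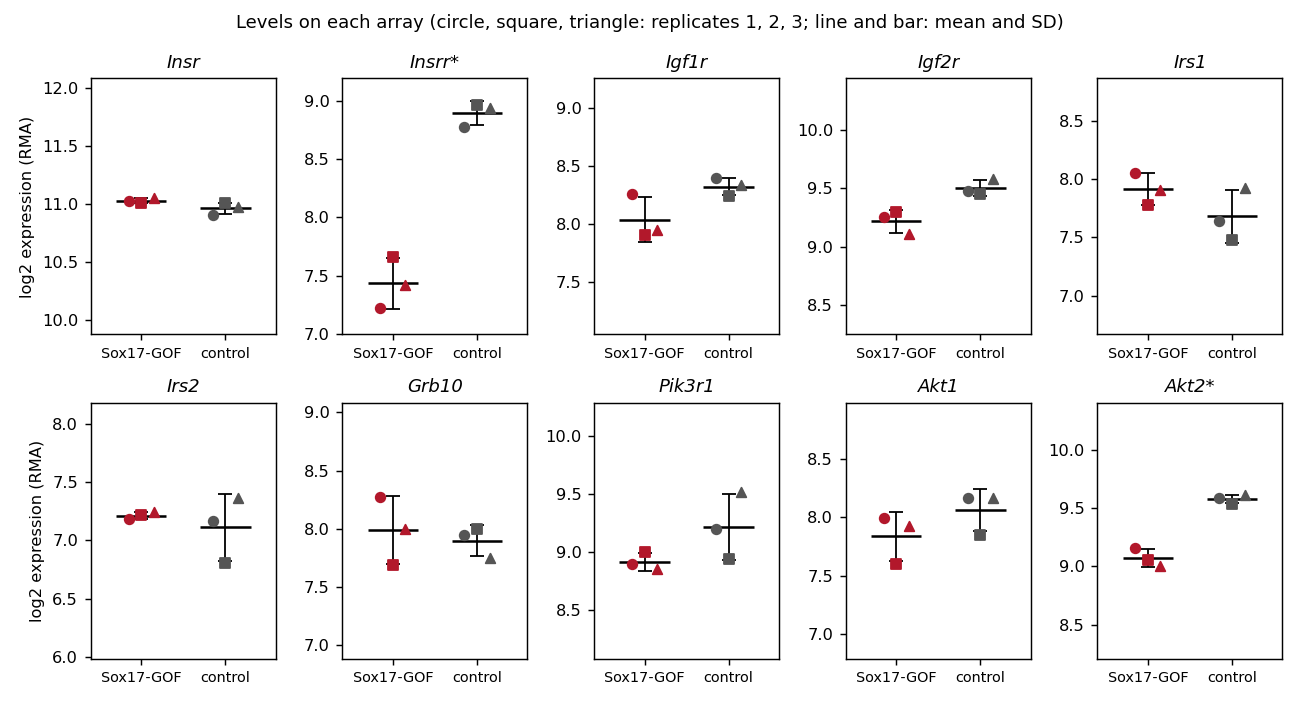
Log2 expression (y axis) of the 10 genes on each array, with 3 Sox17-GOF arrays in red at the left and 3 control arrays in grey at the right of each panel; the symbol gives the replicate number, the line the mean and the bar the SD, and every panel spans the same range of log2 values. An asterisk marks genes with an adjusted p under 0.05, Insrr and Akt2, in which all Sox17-GOF arrays lie below all control arrays.

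Arrays of one group correlated with an r of 0.989 to 0.995 across probe sets, which differ widely in brightness. Their median log2 values ran from 6.31 to 6.41 in Sox17-GOF and from 6.35 to 6.38 in control islets. Sox17 was higher in Sox17-GOF islets, with log2 levels of 6.35, 6.22 and 6.36, against 5.50, 5.72 and 5.71 in control islets (log2 difference 0.67, SE 0.09, adjusted p = 0.00876). In total 1133 probe sets, or 4.93% of those tested, were called. Lists of cell type markers were set beside these values. Of 5 β cell markers 2, Slc2a2 and Ucn3, were lower, and Ins2, Mafa and Nkx6-1 did not pass (log2 differences -0.01, -0.01 and -0.17). The summed linear signal of the list was 11099 to 11247 in Sox17-GOF and 13308 to 13698 in control islets. This sum includes Slc2a2 and Ucn3 and so repeats their lower values, whereas the groups overlapped for each of Ins2, Mafa and Nkx6-1. Ins2 lay toward the upper end of the arrays. The sums of the α, δ and PP, acinar, duct, endothelial, stromal, leukocyte and glial lists overlapped between the groups, with 1 called member, the endothelial gene Kdr, which was lower. Measured were 3 of 4 α, 4 of 5 acinar, 3 of 5 duct and 2 of 4 glial markers, and a linear sum mostly follows its brightest genes. The acinar sum spread more widely among Sox17-GOF samples (18413 to 33029) than among control samples (25392 to 30141). Among the uncalled markers the groups did not overlap for the duct keratins Krt19 (log2 difference 1.32, adjusted p = 0.253, with Sox17-GOF replicate 3 at 9.13 and the other arrays at 6.16 to 7.07) and Krt7 (-0.34, adjusted p = 0.0849), the stromal genes Lum (1.17, adjusted p = 0.106) and Col1a2 (0.21, adjusted p = 0.238) and the endothelial gene Pecam1 (0.37, adjusted p = 0.11). Of the measured markers, only Cftr, of the duct list, had group means below the 20th percentile of the arrays (4.63).

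Among the receptors, Insrr was the one called. Its log2 values were 7.23, 7.66 and 7.42 in Sox17-GOF islets, against 8.78, 8.96 and 8.94 in control islets. All Sox17-GOF arrays thus lay more than a doubling below the control arrays, and Sox17-GOF replicate 2 was the least reduced. The log2 difference was -1.46 (SE 0.12, 95% interval -1.74 to -1.18, adjusted p = 0.00132), a level 2.76-fold lower, and only 8 of 19937 genes had a more negative difference. With each of the 6 arrays omitted in turn, the difference ranged from -1.58 to -1.36 and the adjusted p from 0.00236 to 0.012. In RNA of whole islets, fewer cells of a type and less RNA per cell cannot be told apart. Of the β cell markers, Slc2a2, the glucose transporter GLUT2, and Ucn3, a peptide of mature β cells, were lower (log2 differences -1.01 and -1.03, adjusted p = 0.00745 and 0.00436). Ins2, in contrast, did not pass (log2 difference -0.01, 95% interval -0.18 to 0.16). Its log2 levels, 13.02 to 13.12, lay toward the upper end of the arrays, and whether a change could still be seen there was not tested. What part a shift in β cells had in the lower level of Insrr was not tested.

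Insr, the insulin receptor itself, stayed within narrow bounds. Sox17-GOF islets had log2 levels of 11.02, 11.01 and 11.05, and control islets of 10.91, 11.01 and 10.97. The Sox17-GOF arrays all lay above the control arrays, at the closest by a margin that 2 decimals do not show. On average they differed by 0.07, with a 95% interval from -0.10 to 0.23 (adjusted p = 0.675), so a change of Insr by as much as that of Insrr lay outside the interval. A second, dimmer probe set of Insr had a log2 difference of 0.17 (95% interval -0.03 to 0.37, adjusted p = 0.334). Both probe sets therefore had differences above 0 that did not pass the test.

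The IGF receptors did not pass the test, and the differences of both were negative. Igf1r, the receptor tyrosine kinase that binds IGF1 and IGF2, had log2 levels of 8.26, 7.91 and 7.95 in Sox17-GOF islets, against 8.39, 8.24 and 8.33 in control islets. The groups overlapped through Sox17-GOF replicate 1, which stood slightly above control replicate 2. For Igf1r the log2 difference was -0.28 (95% interval -0.54 to -0.03, unadjusted p = 0.0331, adjusted p = 0.216). Igf2r is the cation-independent mannose 6-phosphate receptor, which clears IGF2 and sorts lysosomal enzymes, and is no kinase. It had log2 levels of 9.25, 9.30 and 9.11 in Sox17-GOF islets, against 9.48, 9.45 and 9.58 in control islets. These groups did not overlap, and the log2 difference was also -0.28 (95% interval -0.48 to -0.09, unadjusted p = 0.0102, adjusted p = 0.11). For both receptors the interval, which is not corrected for the number of genes, left out 0, and neither passed after adjustment in any fit with 1 array left out (adjusted p of 0.0617 or more for Igf1r and 0.152 or more for Igf2r).

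**Figure D2:**
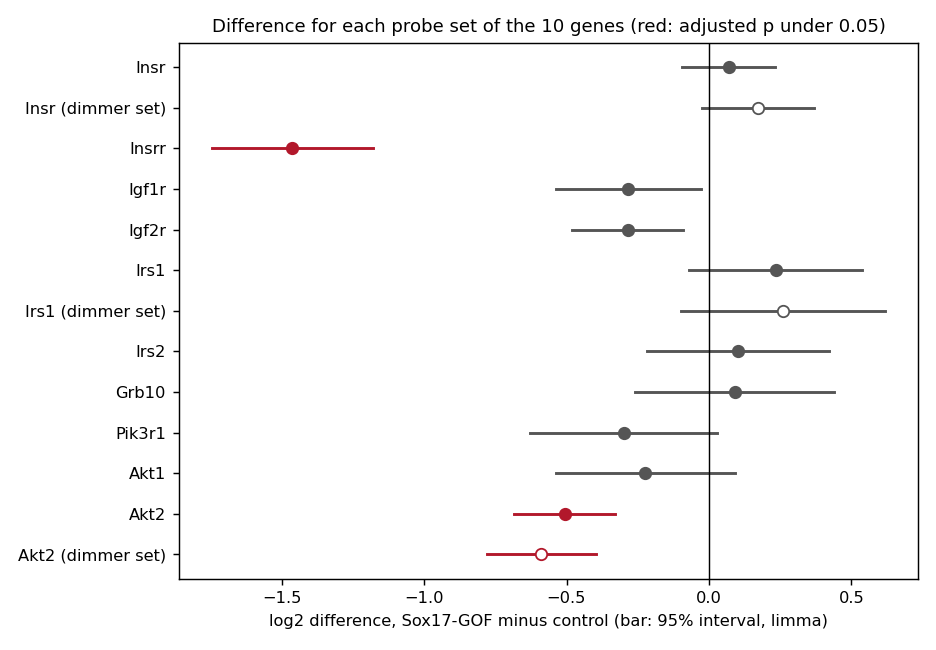
Log2 difference between Sox17-GOF and control islets (x axis) for the 13 probe sets of the 10 genes, with 95% intervals from limma; filled circles are the brightest probe set of a gene and open circles the dimmer one, and red marks an adjusted p under 0.05. Insrr and both probe sets of Akt2 lie to the left of 0, and the intervals of Insr, Irs1, Irs2, Grb10, Pik3r1 and Akt1 include 0.

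The docking and adaptor genes did not pass the test. Irs1, the docking protein first described for the insulin receptor, had log2 levels of 8.06, 7.78 and 7.91 in Sox17-GOF islets, against 7.64, 7.47 and 7.92 in control islets. Control replicate 3 lay above a pair of the Sox17-GOF arrays, so the groups overlapped. This gave a log2 difference of 0.23 (95% interval -0.07 to 0.54, adjusted p = 0.393). The probe set behind these values is annotated with 1 GenBank accession and no RefSeq messenger RNA. All 32 positioned genes with neighbouring probe set IDs lie on the + strand of chromosome 1, whereas Irs1 lies on the - strand. The dimmer probe set, which is annotated with the RefSeq transcript, had a log2 difference of 0.26 (95% interval -0.10 to 0.62, adjusted p = 0.425). What the brighter set reads was not tested, and neither set passed.

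Irs2, the docking protein on which β cells are known to depend, had similar means in the groups and a different spread, which was not tested. Sox17-GOF islets had log2 levels of 7.18, 7.22 and 7.24, and control islets of 7.17, 6.80 and 7.36. The Sox17-GOF arrays fell between the lowest and the highest control array. The SD was 0.03 in Sox17-GOF and 0.29 in control islets (n = 3 each), and the log2 difference was 0.10 (95% interval -0.22 to 0.42, adjusted p = 0.762). Control replicate 2 set the direction of this mean difference, which was -0.05 without it.

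Grb10 encodes an adaptor that binds the activated receptors and restrains their signal. Sox17-GOF islets had log2 levels of 8.27, 7.69 and 7.998, and control islets of 7.94, 8.001 and 7.75. Among the brightest probe sets of the members, the widest spread among Sox17-GOF arrays was found here (SD 0.29, n = 3). The groups overlapped over the whole control range. Grb10 had a log2 difference of 0.09 (95% interval -0.26 to 0.44, adjusted p = 0.811), and it was -0.05 without Sox17-GOF replicate 1.

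Downstream of the receptors, Akt2 fell, and Pik3r1 and Akt1 did not pass. Akt2, the AKT isoform best known for the metabolic actions of insulin, had log2 levels of 9.16, 9.06 and 9.001 in Sox17-GOF islets, against 9.58, 9.54 and 9.61 in control islets. All Sox17-GOF arrays lay below all control arrays, and the gap between the groups was wider than the range within either. The brightest probe set of Akt2 had a log2 difference of -0.51 (SE 0.08, 95% interval -0.68 to -0.33, adjusted p = 0.0124), a level 1.42-fold lower. The dimmer probe set gave 8.30, 8.14 and 8.09 in Sox17-GOF islets, against 8.74, 8.77 and 8.77 in control islets. This set was lower as well (log2 difference -0.59, SE 0.08, adjusted p = 0.00914). Of 38 positioned genes with IDs next to the brighter set, 37 lie on chromosome 11, and all 29 next to the dimmer set lie on chromosome 7, where Akt2 is. What the brighter set reads was not tested. For the brighter set the call depended on the control arrays, since the adjusted p was 0.0558, 0.0534 and 0.0529 without control replicate 1, 2 and 3. Its log2 difference stayed between -0.55 and -0.47 in all fits with 1 array left out. The dimmer set was not refitted with arrays left out.

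Akt1, the paralogue with the broadest expression, had log2 levels of 7.99, 7.60 and 7.93 in Sox17-GOF islets, against 8.17, 7.85 and 8.17 in control islets. Replicate 2 was the lowest array of both groups, and the groups overlapped. The difference of the means was -0.22 on the log2 scale (95% interval -0.54 to 0.09, adjusted p = 0.438). This interval includes the difference measured for Akt2, whereas the interval of Akt2 (-0.68 to -0.33) leaves out that of Akt1. Whether the AKT genes differed in their response was not tested. Pik3r1, which encodes the p85α regulatory subunit and its shorter forms, had log2 levels of 8.90, 8.9999 and 8.85 in Sox17-GOF islets, against 9.19, 8.94 and 9.51 in control islets. Control replicate 2 lay within the Sox17-GOF range, and control replicate 3 well above it. The log2 difference was -0.30 (95% interval -0.63 to 0.03, adjusted p = 0.31).

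The promoter of Akt2 is shown because both probe sets annotated with this gene were lower, although what the brighter one reads was not tested. The sequence runs from 250 bases before to 50 bases after the gene's annotated start (RefSeq, GRCm38.p6, chr7:27591302-27591601, + strand), and capitals mark the single match to TGACG, the half-site of the cAMP response element, which begins 44 bases before the start.
Akt2 promoter: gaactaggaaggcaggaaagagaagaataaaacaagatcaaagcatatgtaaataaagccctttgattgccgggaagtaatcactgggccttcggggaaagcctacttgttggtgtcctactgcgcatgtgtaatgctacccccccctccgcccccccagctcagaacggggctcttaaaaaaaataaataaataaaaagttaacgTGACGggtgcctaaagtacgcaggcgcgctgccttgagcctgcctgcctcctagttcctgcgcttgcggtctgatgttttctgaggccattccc
A SOX, a cAMP response element and a FOXO motif were searched on both strands of the 14 promoters listed for 8 of the members. No promoter was listed for Insr or Insrr, so the counts that follow do not cover them. ACAAT, the core bound by SOX proteins, was found in 1 of the 14, at an internal start of Pik3r1, and in 31.0% of all 32851 promoters in the table. It was not found in the Akt2 window shown. TGACG was found in 6 of the 14, which belong to Igf2r, Irs1, Grb10, Pik3r1 and, with the window shown and that of an internal start, Akt2, and in 20.8% of all promoters. TGTTTAC, a FOXO core, was found in 3.65% of them and, among the members, in 1 promoter of Akt1. These matches describe letters only and do not show binding.

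The members did not move as 1 block from array to array. Among Sox17-GOF arrays, replicate 1 held the highest value of 5 members and replicate 2 the lowest of 5. Among control arrays, replicate 3 was highest for 6 members and replicate 2 lowest for 7. Control replicate 2 was lowest for Igf1r, Igf2r, Irs1, Irs2, Pik3r1, Akt1 and Akt2, and highest for Insr, Insrr and Grb10.

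**Figure D3:**
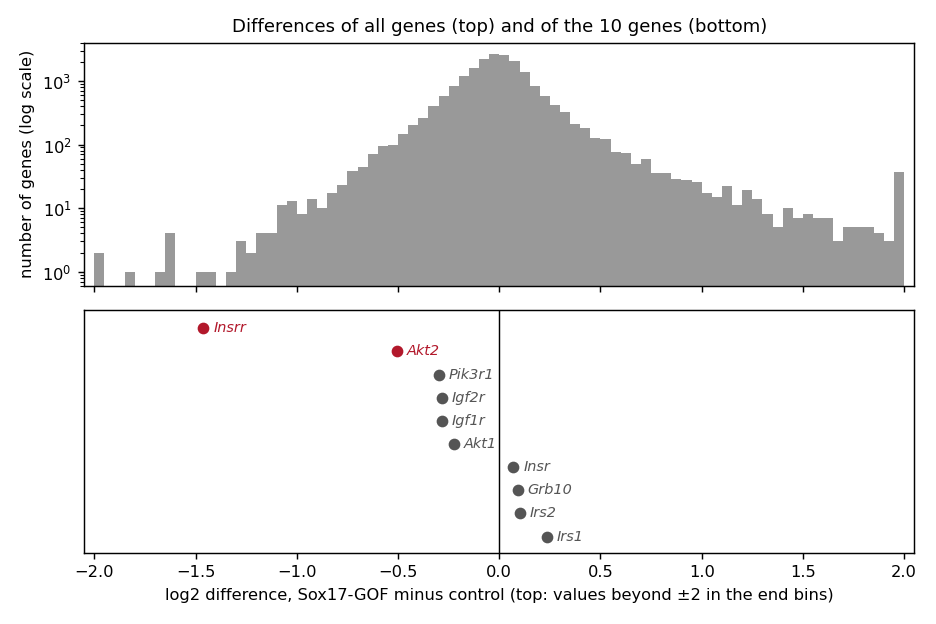
Log2 differences between Sox17-GOF and control islets for all 19937 genes (top, number of genes per bin on a log scale) and for the 10 members (bottom, in order of their value; red marks an adjusted p under 0.05). Genes beyond the plotted range are counted in the end bins. Insrr, at -1.46, lies in the far lower tail, and the other members lie between -0.51 and 0.23.

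The rest of the pathway was described from a list of 70 further genes, of which 65 were measured. Of these, 5 were lower, 1 was higher and 59 did not pass, which makes 9.23% called, against 5.21% of all genes. The median log2 difference was -0.11, and 44 of the 65 values were below 0, beside 10550 of the 19937 values of all genes. The count was unstable: it ranged from 0 to 5 when 1 array was left out and was 2, both lower, when arrays were centred on their medians. It was 1 when probe sets without a gene symbol were tested along with the others. None of the 6 calls held in every fit with 1 array left out.

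The genes that fell took part at different steps. Igfals, the acid-labile subunit that carries IGFs in plasma, was the only called gene of 8 IGF binding proteins (log2 levels 7.5002, 7.60 and 7.69 in Sox17-GOF islets, against 7.93, 8.35 and 8.11 in control islets, adjusted p = 0.0484). Shc1, an adaptor that links receptors to the RAS and MAP kinase pathway, was the only called gene of 14 substrates and adaptors (log2 difference -0.51, SE 0.11, adjusted p = 0.0485). Pdpk1 encodes PDK1, the kinase that phosphorylates AKT in its activation loop, and had a log2 difference of -0.41 (SE 0.08, adjusted p = 0.0302). Of the 11 measured genes of AKT activation and TOR complexes it was the one called. Of the 11, 10 had a difference below 0, beside 10550 of all 19937 genes. Ide, the insulin-degrading enzyme, fell in the group of inhibitors and ligand clearance, with log2 levels of 8.30, 8.25 and 8.33 in Sox17-GOF islets, against 8.85, 8.79 and 8.69 in control islets (log2 difference -0.48, SE 0.08, adjusted p = 0.015). It kept its call in 3 of 6 fits with 1 array left out, the most among these genes.

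Of 8 AKT substrates, 1 was lower, 1 was higher and 6 did not pass, and each of these calls held in 1 of 6 fits with 1 array left out. Foxo1, the transcription factor that AKT keeps out of the nucleus, had log2 levels of 8.30, 7.90 and 7.999 in Sox17-GOF islets, against 8.56, 8.52 and 8.64 in control islets. The groups did not overlap (log2 difference -0.51, SE 0.11, adjusted p = 0.0475). Gsk3a, a glycogen synthase kinase, was the called gene that was higher, with log2 levels of 10.23, 9.85 and 9.62 in Sox17-GOF islets, against 9.18, 9.30 and 9.22 in control islets (log2 difference 0.66, SE 0.15, adjusted p = 0.0491). Sox17-GOF replicate 1 stood highest, and the difference was 0.50 without it (adjusted p = 0.0512). No called gene was found among 9 PI3K subunits and lipid phosphatases or 3 ligands by limma, with 3 and 0 of them at an unadjusted p under 0.05, and the methods' t-test with Benjamini-Hochberg adjustment called none of the 65 pathway genes. Ins2 was among these ligands. Sox17-GOF islets had log2 levels of 13.02, 13.12 and 13.08, and control islets of 13.03, 13.12 and 13.10, toward the upper end of the arrays.

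**Figure D4:**
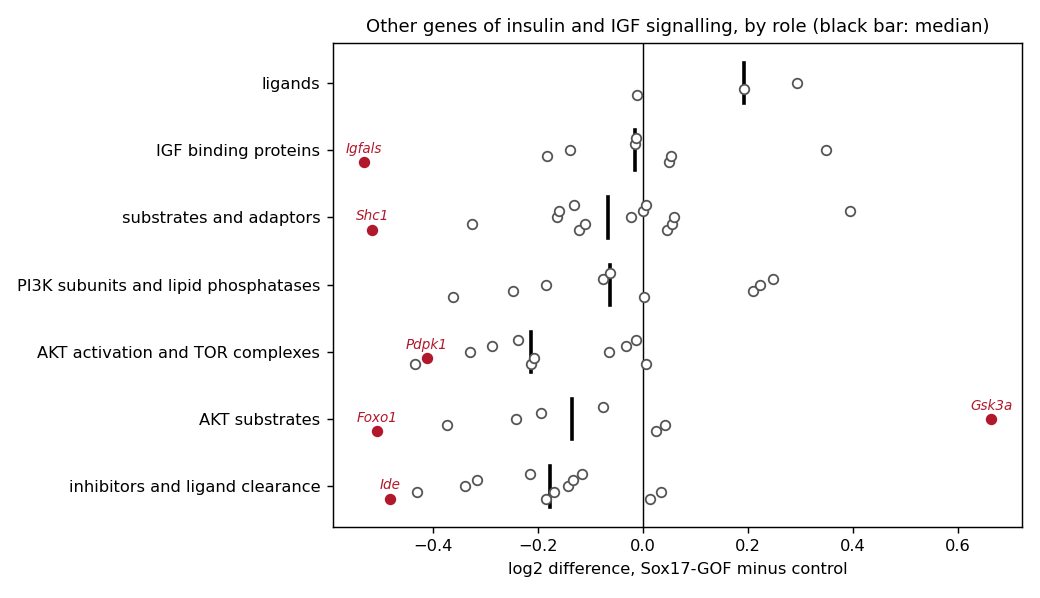
Log2 differences between Sox17-GOF and control islets for the 65 measured pathway genes outside the members, grouped by role; circles stand for genes, in red at an adjusted p under 0.05, and black bars for the medians of the roles. Igfals, Shc1, Pdpk1, Foxo1 and Ide lie to the left of 0 and Gsk3a to the right.

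The genes that follow the called members on the chromosome were set beside them. Sh2d2a, the protein-coding gene that follows Insrr, had a log2 difference of -0.16 (95% interval -0.35 to 0.04, adjusted p = 0.385), and Ttc9b, which follows Akt2, one of 0.05 (95% interval -0.14 to 0.25, adjusted p = 0.793). Neither came near the difference of its neighbour.

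Genes whose values followed those of Insrr most closely over the 6 arrays were Ghr, Cdhr1 and Rnft2 (Pearson r = 0.996, 0.996 and 0.995, the highest of 17549 genes compared). The arrays fall into the 2 genotypes, so these values reflect mostly the difference between the groups, and they are given as a description. Ghr, the growth hormone receptor, had log2 levels of 10.36, 10.53 and 10.43 in Sox17-GOF islets, against 10.81, 10.90 and 10.89 in control islets. It was lower (log2 difference -0.43, SE 0.08, adjusted p = 0.0264), with a call that held in 1 of 6 fits with 1 array left out. Cdhr1, a cadherin-related protein of photoreceptors, was lower in every such fit (log2 difference -0.75, SE 0.08, adjusted p = 0.00421). Rnft2 did not pass (log2 difference -0.19, adjusted p = 0.177).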

How the data were processed

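The values are on the log2 scale as deposited. The authors obtained them by RMA, a procedure of background correction, quantile normalization across arrays and summary of the probes of a set, for which GeneSpring is named in the methods and Affymetrix Expression Console in the submitters' processing notes, without a version. RMA makes the arrays' distributions alike, so a shift shared by most genes would not be seen, and it compresses changes of dim probe sets. Of 34760 probe sets, 11799 without a gene symbol were left out and 22961 entered limma 3.58.1 (lmFit, then eBayes without a trend; R 4.3.3). Benjamini-Hochberg adjustment covered all 22961. The 1321 probe sets with several symbols stayed in the test but represent no gene. Nothing was rescaled, and the number of arrays limits the precision.

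The members, the pathway and marker lists and the tests were chosen with earlier results of these data known. Named genes are all members and their probe sets, called pathway genes (at most 3 per role and direction), Ins2, Foxo1, Sox17, the protein-coding neighbours of called members and the 3 genes most like Insrr. An exact two-sided permutation test of 3 arrays against 3 cannot go below p = 0.10, the value reached by Sox17, Insrr, Akt2, Igf2r and Insr. Alternatives were an intensity trend, array weights, centring, quantile normalization, all probe sets, no dim probe sets (below the 20th percentile), a replicate block, the methods' t-test (also at a fold of 1.3), averaging the probe sets of each gene, each array left out and, added later, the dimmer probe set. The procedure was tested on simulated arrays.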

Additional observations from a re-analysis of the deposited data

How the results depend on the processing

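Of 163 values of the 10 members under the alternatives, 156 kept their direction and their side of the threshold, 5 lost their call and 2 changed sign. Insrr passed in all alternatives but the methods' t-test after Benjamini-Hochberg adjustment (adjusted p = 0.0771), and Akt2 in all but that test (0.0771) and the 3 fits without a control array. Fits with 1 array left out used the brighter probe set of Akt2, and its dimmer set was not refitted in this way. With each array left out, 1 to 2 members, 0 to 5 pathway genes and 385 to 1020 probe sets were called, and the log2 difference of Sox17 was 0.59 to 0.71. The pathway count was 0 for each of 3 omitted arrays (Sox17-GOF replicate 2, control replicates 1 and 2), 1 without control replicate 3 and 3 without Sox17-GOF replicate 3. The lowest count of probe sets, 385, came without control replicate 2; it was 472 and 521 without control replicates 1 and 3 and 651 without Sox17-GOF replicate 2. The methods' t-test with adjustment called 71 probe sets, 0 members and 0 pathway genes, and gave Sox17 the same log2 difference of 0.67 at an adjusted p = 0.0906; at its own thresholds it called 1623, 2 and 8. With all probe sets tested, 558 probe sets and 1 pathway gene were called. The pathway count was 3 with an intensity trend (2 lower and 1 higher), 2 with median centring (2 lower and 0 higher) and 4 with quantile normalization (3 lower and 1 higher). Signs turned in 4 genes, none of them called. With 1 array left out, Irs2 ranged from -0.053 (without control replicate 2) to 0.23, Grb10 from -0.052 (without Sox17-GOF replicate 1) to 0.24, Ins2 from -0.037 to 0.016 (0.016 without Sox17-GOF replicate 1 and 0.0052 without control replicate 2) and Ttc9b from -0.00048 (without Sox17-GOF replicate 3) to 0.10. The labels number the replicates alike in both groups, yet same-numbered arrays did not deviate together (r of 0.05, -0.02 and -0.04 for replicates 1, 2 and 3), so the numbers were not taken to pair samples. With the replicate block, 720 probe sets, 2 members and 1 pathway gene were called. With quantile normalization 727 of 1196 calls were higher. The causes of these differences were not tested. Dim probe sets did not matter for the members, none of which lay near 4.63.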

Other observations

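Insrr belongs to the receptor tyrosine kinases, and 53 of 55 further genes of that family were measured, from a list added after the members' values had been seen. In Sox17-GOF islets 4 of them were higher, 2 were lower and 47 did not pass (11.3% called, against 5.21% of all genes), with a median log2 difference of 0.01. Kit, the receptor of stem cell factor, had log2 levels of 7.56, 7.67 and 7.26 in Sox17-GOF islets, against 6.13, 6.35 and 6.08 in control islets. The groups stood far apart (log2 difference 1.31, SE 0.13, adjusted p = 0.00253), and Kit kept its call in all 6 fits with 1 array left out. Met, the receptor of hepatocyte growth factor, was also higher (log2 difference 0.79, SE 0.16, adjusted p = 0.0367), as were Fgfr2, a receptor of fibroblast growth factors (log2 difference 0.63, adjusted p = 0.0371), and Epha5, an ephrin receptor (log2 difference 0.53, adjusted p = 0.0386). These calls held in 2, 1 and 1 of the 6 fits. Ret, a receptor of GDNF family ligands, had log2 levels of 7.81, 7.80 and 7.83 in Sox17-GOF islets, against 8.55, 8.58 and 8.84 in control islets, and was lower in every such fit (log2 difference -0.84, SE 0.10, adjusted p = 0.00431). Kdr, a receptor of vascular endothelial growth factor, was lower (log2 difference -0.68, SE 0.11, adjusted p = 0.016), with a call in 3 of the 6 fits. Insrr, at -1.46, had a more negative difference than all 53 of these genes, whose differences ran from -0.84 to 1.31.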
